A study of Mus musculus with 8 samples.

Results

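Skeletal muscle of the limb is built by progenitor cells that leave the somites, and the genes followed here mark successive steps of that path. The 9 genes were taken by symbol, with every probe that the platform annotation assigns to them: Pax3, Pax7, Lbx1 and Met for the progenitors, and Msc, Myf5, Myf6, Myod1 and Myog for commitment. They have 11 probes of 45281 on the array, 5 for progenitor genes and 6 for commitment genes, with a pair of probes each for Lbx1 and Myog. Over all probes, 19057 genes are named.

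The samples were cells sorted by green fluorescence from dissociated mouse forelimbs at E12.5, in a mixed C57BL/6J;129 strain, to compare cells that express the homeobox gene Bapx1 (Nkx3-2) with and without its product. The 4 samples labelled HomoBapx1, called null here, came from embryos with EGFP put next to the start codon on both copies of Bapx1, at the cost of a short stretch of the gene, so that most of the Bapx1 sequence stays in the allele. The 4 samples labelled WTBapx1, called wildtype here, came from embryos with an intact Bapx1 gene to whose untranslated tail EGFP was joined through an internal ribosome entry site (IRES). Both groups therefore carry EGFP driven by the Bapx1 promoter, but not by the same allele, and neither group is free of a reporter. The paper's notation gives a single reporter copy to the wildtype. The sort collects cells in which the Bapx1 promoter was active and the protein EGFP present, so muscle cells enter only as far as they pass that gate. The study calls the replicates biological, and the number of embryos behind each was not given in the sources used here.

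In the embryo, Pax3 acts in the dermomyotome, the part of the somite that gives rise to limb muscle, and switches on Met, the receptor for hepatocyte growth factor that progenitors need in order to leave. Lbx1 is required for the cells to take their routes into the limb, and Pax7 marks progenitors that are held in reserve in growing muscle. Commitment follows through a family of basic helix-loop-helix transcription factors: Myf5 and Myod1 set muscle identity, Myog drives terminal differentiation and Myf6 acts in differentiation and in mature fibres. These factors bind E boxes, mostly as dimers with E proteins, and cooperate with MEF2 proteins. Msc (musculin, also MyoR) belongs to the same structural family but represses transcription, and is expressed in myoblasts before they differentiate.

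The targeted gene was checked first. Both Bapx1 probes were above background on all 4 null arrays and on 0 of 4 wildtype arrays, with normalized log2 intensity of 7.75 to 8.09 and 7.36 to 7.71 on null arrays, against 4.46 to 4.53 and 4.41 to 4.61 on wildtype arrays. By 3 treatments of the background the null mean was at least 3.38-fold and at least 2.87-fold above the detection limit of the wildtype arrays. The limma fit gave adjusted p of 8.8e-08 and 3.3e-07. Both probes passed the filter on detection through the null arrays alone, so the fit sets those against background readings. Neither p is read as support for a higher null level. The null allele keeps most of the Bapx1 sequence. The wildtype cells carry an intact Bapx1 gene and were sorted for activity of its promoter, yet neither probe was above background on any wildtype array. The reason for this direction was not tested. Where the probes lie relative to the stretch removed from the null allele was not analysed, so they do not check the labels. The groups are named below as their arrays are labelled, and each direction is that of the array labelled null relative to the array labelled wildtype. Median probe intensity was 57.9 to 70.4 per array, and 19840 to 20879 probes per array (43.8% to 46.1%) were above background, meaning a detection p under 0.05. Arrays labelled null replicates 2 and 3 stood apart in Xist, the transcript that coats the inactive X chromosome, with 8.99 and 6.57 on the log2 scale by one probe, against 11.26 and 11.58 on the other two null arrays and 10.57 to 12.02 on the wildtype arrays. The Y-linked gene Eif2s3y was at 11.35 and 11.46 on those arrays, against 10.82 and 10.67 on the other null arrays and 10.03 to 10.46 on the wildtype arrays. All 4 null arrays thus lay above the wildtype arrays, a change of 0.83 ± 0.18 (SE, adjusted p = 0.0365 by limma). Kdm5d, also Y-linked, changed by 0.98 ± 0.26 (adjusted p = 0.0748). A second Eif2s3y probe and a Uty probe changed by 0.24 and 0.25 (adjusted p = 0.352 and 0.627). Leaving out null replicates 2 and 3 does not make the groups alike in Eif2s3y. Without null replicates 2 and 3 several results took other values. They are given below for Msc, Hes1, Zic1, Ngfr and the sarcomere, myoblast surface, macrophage, platelet, endothelial and limb mesenchyme lists.

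No progenitor gene gave a signal above background. The 5 probes of Pax3, Pax7, Lbx1 and Met were detected on 0 of 4 null and 0 of 4 wildtype arrays. The dimmest signal that counted as detected was 61.1 to 71.0 intensity units on the null arrays and 64.5 to 76.8 on the wildtype arrays, and every progenitor value lay under it.

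Pax3, the regulator at the start of the path, had intensities of 51.0, 51.4, 53.1 and 49.4 on null arrays, against 49.9, 50.3, 48.8 and 46.0 on wildtype arrays. Pax7, its paralog of later progenitors, had 43.2, 48.2, 45.3 and 48.6 on null arrays, against 53.7, 45.5, 46.4 and 42.2 on wildtype arrays. Both genes had overlapping groups, with detection p of 0.307 to 0.679 for Pax3 and 0.467 to 0.827 for Pax7. Met, the receptor of the migrating cells, had 41.5, 45.8, 51.3 and 40.9 on null arrays, against 54.1, 48.2, 49.6 and 43.3 on wildtype arrays. Lbx1, the homeobox gene of migrating progenitors, ranged from 43.4 to 46.9 on null arrays and from 35.3 to 52.5 on wildtype arrays by the first probe, and from 38.9 to 48.2 on null arrays and from 43.5 to 47.6 on wildtype arrays by the second. The detection p of Met and of both Lbx1 probes was between 0.392 and 0.998. Since all 8 values of each of these probes are at background, no fold change is given, and the arrays set no more than an upper limit to the signal: a probe under its detection limit does not show that the transcript was absent.

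Myf5 and Myf6 were below detection in the same way. Myf5, one of the 2 genes that confer muscle identity, had 47.0, 52.7, 43.7 and 58.9 intensity units on null arrays, against 55.4, 44.9, 49.0 and 48.1 on wildtype arrays. Myf6, the factor of differentiating fibres, had 56.1, 46.9, 45.8 and 47.3 on null arrays, against 54.7, 43.6, 50.3 and 49.0 on wildtype arrays. Both were detected on 0 of 8 arrays, with detection p down to 0.160 for Myf5 and 0.138 for Myf6, and their groups overlapped. In all, 7 of the 11 probes were above background on no array.

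Myod1, the other identity factor, was above background on a single array, wildtype replicate 2. Its intensities were 53.8, 51.6, 52.1 and 60.0 on null arrays, against 71.4, 73.9, 58.2 and 58.2 on wildtype arrays. After normalization its log2 intensity averaged 4.62 ± 0.13 on null arrays and 4.96 ± 0.32 on wildtype arrays (SD, n = 4 each), and the lowest wildtype value, 4.67 in replicate 3, lay within the null range. An exact two-sided permutation test of this difference gave p = 0.0857. Detected on 0 null arrays and 1 wildtype array, the probe did not enter the comparison across the array, which required detection on at least 4 of the 8 arrays, and no fold change is given for it.

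**Figure D1:**
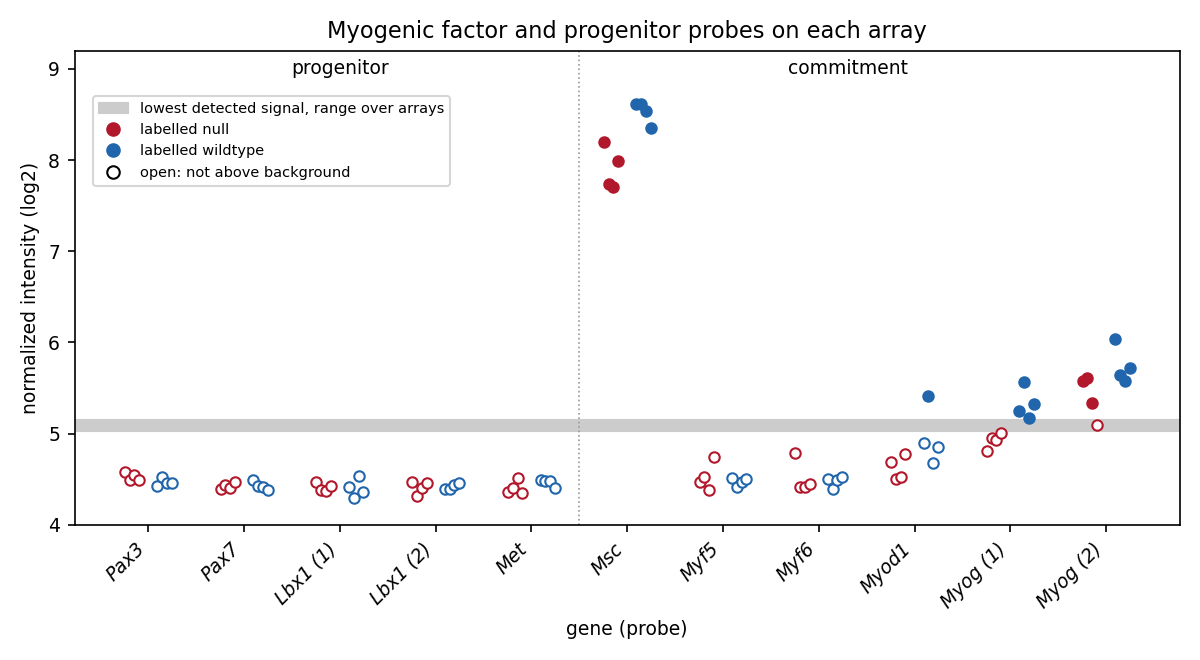
Normalized log2 intensity (vertical axis) of the 11 probes of the 9 genes, with the 4 arrays labelled null to the left of the 4 labelled wildtype for each probe and progenitor genes left of the dotted line; filled points are above background, open points are not, and the grey band spans the lowest detected signal of each array. All progenitor probes lie under the band, Myog straddles it, and Msc lies far above it with null arrays at 7.71 to 8.20 and wildtype arrays at 8.35 to 8.62.

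Msc, the repressor of the family, was the only 1 of the 11 probes above background on all 8 arrays, and it was lower on the null arrays. Its intensity was 265.8, 278.4, 275.0 and 286.0 on null arrays, against 518.1, 401.7, 441.3 and 293.2 on wildtype arrays. Before normalization the groups did not overlap, but wildtype replicate 4 came close to null replicate 4. After normalization the log2 intensity was 8.20, 7.74, 7.71 and 7.99 in null replicates 1 to 4, against 8.61, 8.62, 8.54 and 8.35 in wildtype replicates 1 to 4. The highest null array, replicate 1, remained below the lowest wildtype array, replicate 4. The means were 7.91 ± 0.23 on null arrays and 8.53 ± 0.13 on wildtype arrays (SD, n = 4 each), a log2 change of -0.62 ± 0.12 (SE) with a 95% interval of -0.90 to -0.35, or a null level of 0.650 of the wildtype level. In the limma fit over 20593 probes the adjusted p was 0.0230, and the exact two-sided permutation test gave p = 0.0286, the smallest that its 70 assignments allow. In these sorted populations fewer cells of a type and less RNA per cell cannot be told apart.

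The Msc change was negative in 21 of 21 alternatives, but its call was lost with a replicate block in the fit (0.0616 as adjusted p), after a shift of the arrays to 1 median (0.0579), after scaling by the median absolute deviation (0.948), in the authors' processed values (0.0537) and in the methods' test, which takes each probe's own variance (0.0830). Leaving out 1 array at a time kept the log2 change between -0.72 and -0.56, but the adjusted p rose to between 0.0575 and 0.0708 without null replicate 2, null replicate 3 or wildtype replicates 1, 2 or 3, and was 0.0103 to 0.0498 without any of the other 3 arrays. Without both null replicates 2 and 3, the arrays with low Xist, the change was -0.44 ± 0.12 (SE) with an adjusted p of 0.0772, and with a term for the Y-linked level in the fit it was -0.40 ± 0.16 with an adjusted p of 0.145.

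Myog, the differentiation factor, was measured near the detection limit, where its probes gave lower values on the null arrays that did not pass the adjusted threshold. Its first probe had intensities of 56.6, 68.7, 66.8 and 66.2 on null arrays, against 83.4, 77.9, 73.8 and 68.3 on wildtype arrays, so that before normalization the groups overlapped at null replicate 2 and wildtype replicate 4. After normalization they did not, with 4.81, 4.95, 4.93 and 5.01 in null replicates 1 to 4, against 5.25, 5.56, 5.17 and 5.33 in wildtype replicates 1 to 4. This probe was above background on 0 of 4 null arrays and 4 of 4 wildtype arrays. Its mean of 4.92 ± 0.08 on null arrays is therefore a bound, and with a wildtype mean of 5.33 ± 0.17 (SD, n = 4 each) the null level was at least 1.21-fold lower, or at least 1.09-fold and 1.11-fold lower with the saddle-point background and with no background correction. A bound of this kind sets the bright group's mean against the dim group's detection limit. The probe passed the filter through the wildtype arrays alone, so its fit sets them against background readings. The fitted log2 change was -0.40 ± 0.10 (SE), with an adjusted p of 0.0567 by limma and p = 0.0286 by the exact two-sided permutation test. The bound carries no error, and neither the bound nor either p is read as support for a lower null level. Array weights, which let noisier arrays count for less, gave the only adjusted p under 0.05 for this probe, 0.0209 at a log2 change of -0.37, with the same limit.

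The second Myog probe was above background on 3 of 4 null arrays, all but replicate 4, and on 4 of 4 wildtype arrays. Its intensities were 73.0, 90.0, 79.1 and 68.6 on null arrays, against 120.3, 80.2, 87.8 and 78.2 on wildtype arrays. Log2 intensity averaged 5.40 ± 0.24 on null arrays and 5.74 ± 0.20 on wildtype arrays (SD, n = 4 each), and the groups overlapped. The fitted change of -0.34 ± 0.14 (SE) had a 95% interval of -0.65 to -0.03, an adjusted p of 0.247 by limma and an exact permutation p of 0.0571. Neither probe passed after adjustment.

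Myog is the only commitment gene of those detected whose promoter window was among the reference sequences, which held 4 of the 9 genes (Pax7, Met, Myf5 and Myog). These stretches of it are printed because the family to which the measured factors belong binds E boxes, and MEF2 proteins, their partners, bind A/T-rich sites. Both are RefSeq sequence of build GRCm38.p6, plus strand, read 5′ to 3′, with the matched motif in capitals; the E box lies in chr1:134289974-134290003 and starts 12 bases before the transcription start, the MEF2-type site lies in chr1:134289930-134289959 and starts 64 bases before it.

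Myog E box window: ggtttaaatggcacccagCAGTTGgtgtga
Myog MEF2-type window: gtggcgttggCTATATTTAtctctgggttc

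The search was for CANNTG as E box and CTANNNNTA as MEF2-type site on both strands in windows of 300 bases, from 250 before the start to 50 after. Of 32851 promoters, 72.3% held CANNTG and 21% held CTANNNNTA, so the presence of an E box sets no gene apart. A further E box, CACATG, starts 138 bases before the Myog start. The stricter CAGCTG form, in 16.3% of all windows, was found in none of the 4. The letters are a description of the window and no measure of binding.

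Of the 11 probes, 3 passed the filter on detection (Msc and both of Myog, the first Myog probe through the wildtype arrays alone), all of them commitment genes, and 1 was called, lower on the null arrays. Across the array 817 of 20593 probes (3.97%) were called, 437 of them lower (2.12%) and 380 higher (1.85%). All 4 null arrays lay below all 4 wildtype arrays, as for Msc and the first Myog probe, at 1315 probes (6.39%) and above them at 1224 (5.94%), together 12.3%. The count is too small to be read against those shares. Progenitor and commitment genes cannot be compared as groups for their change, because no progenitor probe had a measured one. By detection, 0 of 5 progenitor probes and 4 of 6 commitment probes were above background on at least 1 array. Those 4 are Msc, both probes of Myog, and Myod1 on 1 array only. Myf5 and Myf6 were detected on none, as the progenitor genes were. Of all probes 43.8% to 46.1% were above background per array, and the share on at least 1 array was not computed. Counts this small are not read as a difference between progenitor and commitment genes.

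Of 7 genes for migration into the limb, 6 were measured and none was called (median log2 change -0.06, against 0.01 over all 11037 genes). Among them Hgf, the ligand of Met, had a change of -0.32 ± 0.16 (SE, adjusted p = 0.355), with 0.29 ± 0.11 (adjusted p = 0.208) by a dimmer probe, and Cxcr4, the chemokine receptor that marks part of the migrating cells in the chick and mouse, had -0.52 ± 0.28 (SE, adjusted p = 0.377), while Efna5, with the lowest p of the list, had 0.38 ± 0.12 (adjusted p = 0.128). Of 10 upstream regulators on the array, 8 were measured and 1 was called, higher on the null arrays, against 4.94% of all genes called and 2.22% called higher. It was Eya1, a transcriptional coactivator of the somite and of many other tissues, which rose by 1.87 ± 0.23 (SE, adjusted p = 0.0029 by limma), with 7.10, 7.62, 7.68 and 7.41 in null replicates 1 to 4, against 5.12, 5.50, 6.29 and 5.40 in wildtype replicates 1 to 4.

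Of 8 partners and cofactors, 6 were measured and none was called (median -0.04). Vgll2, a cofactor of TEAD proteins in muscle, had the lowest p, at -0.27 ± 0.12 (SE, adjusted p = 0.293). Of 11 inhibitors of myogenesis, 9 were measured and 2 were lower on the null arrays (median 0.01), against 2.72% of all genes lower. Twist2, a basic helix-loop-helix repressor, changed by -0.53 ± 0.07 (SE, adjusted p = 0.0047) and its groups did not overlap, with 9.73 to 9.89 on null arrays against 10.30 to 10.42 on wildtype arrays. Hes1, the Notch effector, changed by -0.64 ± 0.15 (adjusted p = 0.043), with 8.45 to 9.04 on null arrays against 9.28 to 9.47 on wildtype arrays, and its call was lost in 13 of 21 alternatives, among them the omission of null replicates 1 or 4 or of any wildtype array (adjusted p of 0.0775 to 0.111). Without both null replicates 2 and 3 the Hes1 change was -0.92 (adjusted p = 0.0043). The Twist2 call was kept without any single array and lost after scaling by the median absolute deviation, after a shift of the arrays to 1 median and in the authors' processed values (adjusted p of 0.99997, 0.0636 and 0.0646).

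Genes downstream of the members were measured more often than the members themselves. Of 20 sarcomere and contraction genes on the array 15 were measured, and 11 of them fell on the null arrays while 4 did not pass, against 2.72% of all genes lower. The median log2 change was -0.62, all 15 changes were negative by the brightest probe of each gene, and in 11 genes all null arrays lay below all wildtype arrays, as in 7.36% of all genes. Acta1, skeletal actin, had 7.11, 6.97, 7.08 and 7.23 in null replicates 1 to 4, against 7.73, 7.90, 7.81 and 8.03 in wildtype replicates 1 to 4, a change of -0.77 ± 0.09 (SE, adjusted p = 0.0022). Myl4 and Mylpf, light chains of myosin, changed by -0.92 ± 0.13 and -0.82 ± 0.10 (SE, adjusted p = 0.0056 and 0.0029). Separate probes of a gene did not always move alike: the second Mylpf probe changed by -0.88 (adjusted p = 0.0135), but a second probe of Ttn, the giant spring protein, by -0.21 (adjusted p = 0.436) and further probes of Myh8, a developmental myosin heavy chain, by -0.32 and -0.03 (adjusted p = 0.417 and 0.923). Ryr1, the calcium release channel, had -0.19 by its brightest probe and 0.07 and 0.18 by the others, none of them called (lowest adjusted p = 0.293). Without null replicates 2 and 3, 8 genes of the list fell with a median of -0.51. With scaling by the median absolute deviation, the scaling named in the study's methods, 0 were called at a median of -0.60.

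Between regulator and sarcomere, of 14 genes for the myoblast surface and the nerve-muscle synapse 8 were measured and none was called (median -0.23, 7 of 8 negative). Chrnb1, an acetylcholine receptor subunit, had the lowest p, at -0.31 ± 0.08 (SE, adjusted p = 0.060), and its 4 null arrays lay at 7.99 to 8.18, below the wildtype arrays at 8.37 to 8.48. Ncam1, which nerve and mesenchyme express too, was the exception in sign at 0.77 ± 0.22 (SE, adjusted p = 0.097). Its dimmer probes changed less, by 0.12 and 0.20 (adjusted p = 0.750 and 0.419). Chrnb1 was called lower in 4 of 21 alternatives (adjusted p of 0.0087 to 0.0441). These were no background correction, the saddle-point background, no filter and array weights. In this list 1 gene was also called lower without null replicate 1. A gene was called higher without null replicate 3, without both null replicates 2 and 3 and with the term for the Y-linked level.

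**Figure D2:**
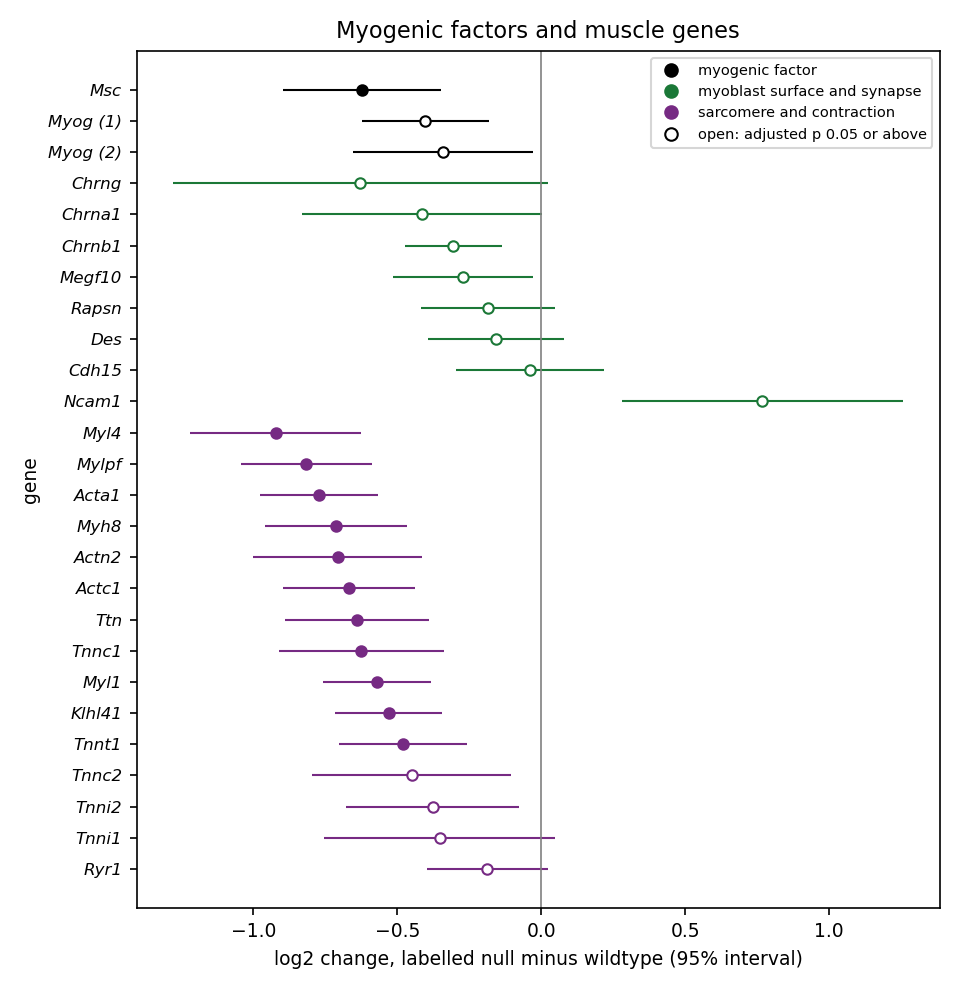
Log2 change between arrays labelled null and wildtype (horizontal axis, points, with 95% intervals as lines, n = 4 arrays each) for the measured myogenic factor probes, the myoblast surface and synapse genes and the sarcomere and contraction genes, filled where the adjusted p is under 0.05. Msc at -0.62 and the Myog probes at -0.40 (null arrays not above background) and -0.34 lie within the range of the sarcomere genes, -0.92 to -0.19. The intervals come from the same fit as the calls and are no further test of them.

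Over the 8 arrays the pattern of Msc was most like that of 3 of the 11036 other genes by Pearson correlation of log2 intensity: Elp5, a subunit of the Elongator complex (r = 0.981), Actc1, cardiac alpha actin, which embryonic skeletal muscle also makes (r = 0.978), and Tspo, a protein of the outer mitochondrial membrane (r = 0.974). These are descriptions over 8 arrays that share the difference between groups. Inside the groups, after each group's mean was removed, the values were 0.963, 0.910 and 0.900. Actc1 had 9.28, 8.90, 8.92 and 9.17 in null replicates 1 to 4, against 9.82, 9.78, 9.64 and 9.69 in wildtype replicates 1 to 4. It was thus highest on null replicate 1 and lowest on null replicates 2 and 3 within its group, as Msc was, and changed by -0.67 ± 0.10 (SE, adjusted p = 0.0076). Elp5 moved little, by -0.12 ± 0.07 (adjusted p = 0.438), and its other probes by -0.07 and -0.06. Myog by its second probe, the brighter, came at rank 1278 with r = 0.614, and at 0.0757 inside the groups.

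**Figure D3:**
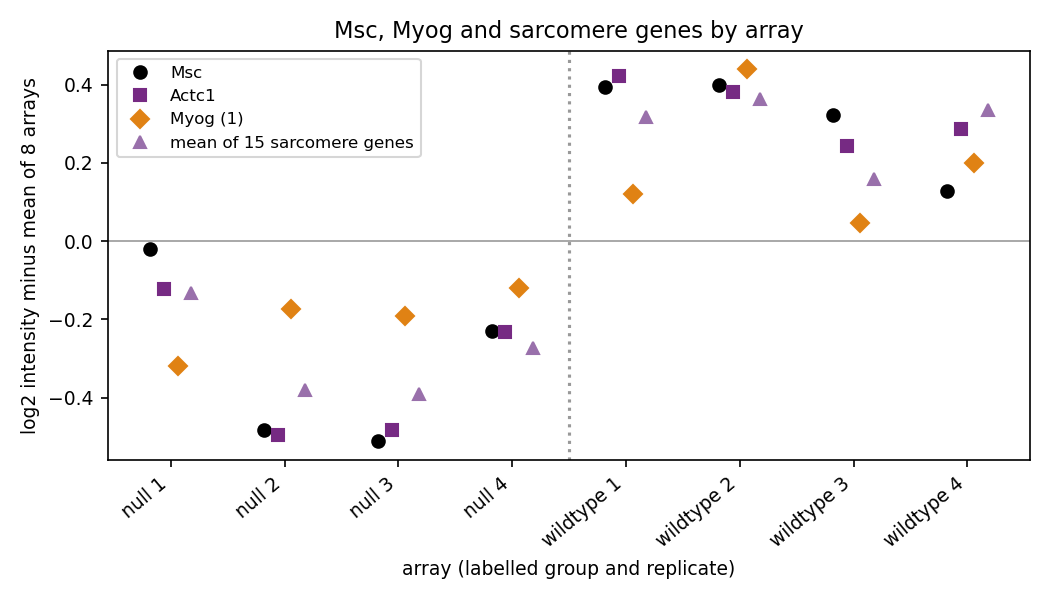
Log2 intensity minus the mean of the 8 arrays (vertical axis) on each array labelled null or wildtype (horizontal axis) for Msc, Actc1, the first Myog probe and the mean of the 15 measured sarcomere genes. Msc and Actc1 are lowest on null replicates 2 and 3, and the first Myog probe is not above background on any null array, so that its null values have no order.

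Markers of other cell types moved with these results. Sums below are of deposited intensity, before background removal or normalization, so they carry differences in brightness between arrays. Of 9 measured macrophage genes 8 fell and of 8 platelet genes 8 fell, against 2.72% of all genes lower, with summed intensity of 571 to 638 on null arrays against 1074 to 2148 on wildtype arrays for macrophage genes, and of 1051 to 3238 on null arrays against 8707 to 21810 on wildtype arrays for platelet genes. After scaling by the median absolute deviation 6 macrophage and 3 platelet genes were called lower, and in the methods' test 6 and 0. With the term for the Y-linked level the counts were 7 and 5. Without both null replicates 2 and 3 each list kept 8 calls. Their medians were then -1.46 for macrophage and -1.80 for platelet genes, against -1.48 and -2.73 over all arrays. C1qb, Fcgr3, Tyrobp and C1qc of the macrophage list were above background on 0 of 4 null and 4 of 4 wildtype arrays. They passed the filter through the wildtype arrays alone and could be called only as lower. Their null values in the sum are background readings. Where detection on all 8 arrays was required, 2 macrophage and 6 platelet genes were called lower. Of 8 measured endothelial genes 3 fell, against the same 2.72% (984 to 1156 on null arrays, 1163 to 1827 on wildtype arrays). The endothelial count was 1 without null replicate 2 or without both null replicates 2 and 3, 1 in the methods' test, and 0 with the term for the Y-linked level or after scaling by the median absolute deviation. The 15 sarcomere genes summed to 3519 to 4143 on null arrays and to 4855 to 7185 on wildtype arrays. Of 10 dorsal neural and neuronal genes on the array 4 were measured and 2 rose, with Zic1 at 3.51 ± 0.71 (SE, adjusted p = 0.0256), Stmn2 at 1.02 ± 0.15 (adjusted p = 0.0059) and a sum of 1345 to 2208 on null arrays against 821 to 1007 on wildtype arrays. Zic1 was above background on 4 of 4 null arrays and 1 of 4 wildtype arrays, so its change is set mostly against background readings and is no exact fold. Its log2 intensity was 9.54, 7.66, 6.29 and 10.13 in null replicates 1 to 4. Its call was lost in 11 of 20 alternatives. Among them were the omission of null replicate 1 or any wildtype array (adjusted p of 0.0571 to 0.0737), the methods' test (0.125) and scaling by the median absolute deviation (0.158). Without both null replicates 2 and 3 the Zic1 change was 4.94 (adjusted p = 1.5e-05). Olig3, Lmx1a, Lmx1b, Sox1, Tubb3 and Elavl3 did not pass the filter on detection. The 2 measured of 7 Schwann cell and neural crest genes and the 6 measured of 8 epithelial genes gave no call. Ngfr changed by -0.46 ± 0.12 (SE, adjusted p = 0.0624) with groups that did not overlap, and Sox10 by 0.26 ± 0.11 (adjusted p = 0.273). The Ngfr change was called in 4 of 21 alternatives, among them without both null replicates 2 and 3 (-0.59, adjusted p = 0.0467). Krt8 had the lowest p of the epithelial list, at 0.24 ± 0.10 (SE, adjusted p = 0.262). The 9 limb mesenchyme genes were all measured, with no call and a median of 0.32. They include Tbx5, a gene of the forelimb as against the hindlimb, and Prrx1. Col2a1 had the lowest p, at 0.32 ± 0.08 (SE, adjusted p = 0.0728), and was called higher in 4 of 21 alternatives. The sums of the list overlapped (32896 to 47494 on null arrays, 32838 to 46743 on wildtype arrays). After normalization the mean log2 intensity of these genes did not, with 9.88 to 10.13 on null arrays against 9.69 to 9.85 on wildtype arrays. Without null replicates 2 and 3 their median was 0.19 with 1 gene called higher, and with the term for the Y-linked level it was 0.098 with 1 called higher. The part of these other cells in the Msc, Myog and sarcomere results was not tested.

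**Figure D4:**
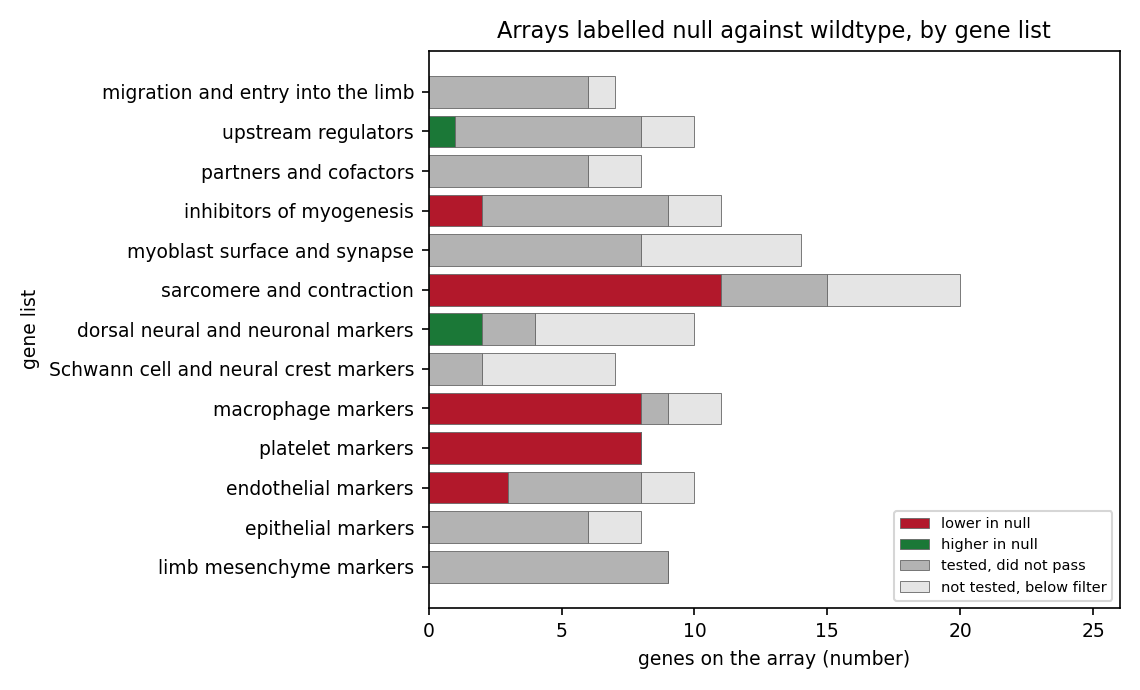
Number of genes on the array (horizontal axis) of each gene list that were lower on arrays labelled null, higher on them, tested without passing an adjusted p under 0.05, or below the filter on detection. The list with most lower genes is sarcomere and contraction with 11, and macrophage and platelet genes had 8 each.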

How the data were processed

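RNA of sorted forelimb cells was labelled as biotinylated cRNA and hybridized to Illumina MouseWG-6 arrays, 1 array per sample. The authors deposited linear probe intensity, which holds no negative value although the methods describe background subtraction in GenomeStudio, and was taken as neither background-subtracted nor normalized. The detection value that the authors deposited beside it as a fraction rises with brightness, so the detection p was taken as 1 minus it. A second table that the authors deposited holds processed log2 values, centred per probe on a baseline that stays unknown, with array medians of -0.00500, 0.00485, 0.0136 and -0.00223 in null replicates 1 to 4 and 0.00160, 0.00139, 0.00479 and -0.0154 in wildtype replicates 1 to 4; they equal the log2 intensity up to a shift per array and per probe, and higher is brighter. Rows of both tables were paired by their differences between arrays (45281 of 45281 within 1e-05), since probe names stand in the second only. The platform annotation gives 1 symbol to 34885 probes, several to 18 (left unnamed) and none here to 10378.

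The nec function of limma 3.58.1 (R 4.3.3) removed background by normexp with an offset of 16, with negative controls inferred from detection p, and the log2 values were quantile normalized. A probe entered the comparison if 4 or more of the 8 arrays had a detection p below 0.05 (20593 probes). Groups were compared with lmFit and eBayes, two-sided, with Benjamini-Hochberg adjustment over all kept probes and a threshold of 0.05. A gene of a list was read from its brightest kept probe. Scripts were tested on simulated data. Neither chip nor scan date is given in the sources used here, so no such batch was tested.

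The genes, the lists and the tests were chosen with earlier results of these data known. Named are the 9 genes with every probe, at most 3 called genes per list by size of change (otherwise the gene with the lowest p), the 3 genes most like Msc, Bapx1, Xist and Y-linked genes. Hgf, Cxcr4, Ncam1, Ryr1, Sox10, Tbx5, Prrx1, the further probes of list genes and the list genes named as not detected on all or on the null arrays were named after their values were seen. Alternatives covered background, scaling, the filter, the processed table, array weights, the variance model, the methods' ANOVA, a term for Y-linked level, the replicate block and leaving out arrays.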

Additional observations from a re-analysis of the deposited data

Results flagged for a closer look

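In 4 of the 72 groups of 4 arrays examined, the farthest array stood apart from the other 3 by more than the limit of Dixon's test, and chance flags about 1 in 20 groups. Myf6 on null replicate 1 was at 4.78 on the log2 scale, against 4.41 to 4.44 on the other null arrays, and all of these values are below the detection limit. The other 3 flags fell on wildtype replicate 1: the macrophage lysozyme gene Lyz2 at 8.82 against 7.78 to 7.92, and the platelet genes Ppbp at 11.2 against 10.1 to 10.2 and Tubb1 at 10.99 against 10.2 to 10.3 on the other wildtype arrays.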

How the results depend on the processing

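Across the array 817 probes were called, and 115 after scaling by the median absolute deviation, 413 with arrays shifted to 1 median, 333 from the authors' processed values, 378 by the methods' ANOVA, 434 with the replicate number as a block, 1749 with a term for the Y-linked level and 1877 with array weights. Of the probes of the 9 genes, 1 was called (Msc), and 0 after scaling by the median absolute deviation, with arrays shifted to 1 median, from the processed values, by the methods' ANOVA, with the Y-linked term, with the replicate block or without null replicates 2 and 3 together, while array weights called 2. Of the sarcomere genes 11 were called lower, and 0 after scaling by the median absolute deviation, 7 by the methods' ANOVA, 6 with the Y-linked level and 10 with the replicate block. Leaving out 1 array at a time gave 452 to 656 probes, 0 to 1 probes of the 9 genes and 8 to 11 sarcomere genes. The lowest count of probes was without null replicate 2, and counts without null replicate 4 (493), wildtype replicate 2 (485), wildtype replicate 4 (481) or null replicate 3 (540) were also more than 1.5 times smaller. Same-numbered arrays of the groups correlated at 0.06, 0.24, -0.18 and -0.26 in their deviations. With 4 arrays per group these values cannot decide whether the numbers pair the samples. Msc kept its sign in 21 of 21 alternatives (-0.77 to -0.40, adjusted p 0.0011 to 0.948) and its call in 9. Over the named genes and probes 581 alternatives gave 497 values on the same side of the threshold, 70 calls lost, 14 gained and 0 changes of sign. The sarcomere counts and genes outside the 9 were given these alternatives after the data were seen. The causes of these shifts were not tested. Signal near the detection limit limits Myog, Myod1 and all progenitor genes, and 4 arrays per group limit the precision.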
